A study of Mus musculus with 12 samples.

Results

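Fatty acid oxidation is described here through 32 genes of its mitochondrial and peroxisomal steps, found by symbol among 30327 genes of the table for diet and 30453 of the table for drug treatment, with all 32 in both. They were placed in 3 classes: 18 mitochondrial members, 10 peroxisomal members, and 4 members whose proteins have more than one location or lie in the cytosol (Eci2, Crat, Amacr and Acot1). The placing rests on textbook knowledge of where the proteins work, not on these data.

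RNA was sequenced from C57BL/6N mice, an inbred strain, put on regular chow or a high-fat diet (HFD) from 6 weeks of age for 18 weeks. Chow 8, 17 and 19 and HFD 4, 30 and 38 had no injection named in their labels. HFD Vehicle 23, 50 and 55 came from obese mice injected intraperitoneally for 4 days once a day with the vehicle, DMSO in corn oil. HFD PCN 5, 11 and 27 had the same schedule with 50 mg/kg of PCN (pregnenolone 16alpha-carbonitrile), a synthetic steroid and an agonist of the pregnane X receptor of rodents. All 4 groups share the strain, and all but Chow share the diet. No label states that the libraries came from different animals, and the p-values speak only of the spread between libraries.

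Beta-oxidation shortens a fatty acid by repeated rounds of dehydrogenation, hydration, a second dehydrogenation and thiolysis. Mitochondria take in long chains through the carnitine shuttle and pass the electrons of the first step to the respiratory chain, while peroxisomes start on very long and branched chains with an oxidase that makes hydrogen peroxide and hand shortened chains on as carnitine esters. Nuclear receptors of the PPAR family, joined by coactivators such as PGC-1alpha, are known to drive many of these genes. White adipose tissue mainly stores fat, and both its adipocytes and its macrophages oxidise fatty acids.

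Depth ranged from 11090117 to 27408092 counts per library, and members had between 1 and 8678 counts in a library. The title names gonadal white adipose tissue and the source label names duodenum: the 11 adipocyte genes found in both tables summed to between 6571 and 24157 CPM (counts relative to the size of the library) in the 12 libraries, and the 5 intestinal genes found in both to between 9.37 and 50.9 CPM. HFD Vehicle 50 stood apart from its group, with macrophage genes summing to 1137 CPM, where the other libraries of the group reached up to 12133 CPM and Chow lay between 515 and 1466 CPM. Mitochondrially encoded genes, mostly ribosomal RNA, took 7.30, 10.6 and 29.6% of the counts in Chow 8, 17 and 19 and between 2.30 and 2.74% in HFD. They took 7.85% in HFD Vehicle 50 and between 2.78 and 3.47% in the other injected libraries. Chow 8, 17 and 19 and HFD Vehicle 50 also had the fewest counts, at 13756819, 13404530, 11702225 and 11090117. The other libraries had between 16646176 and 27408092 counts. Depth and this share thus both differed between Chow and HFD, and the part of depth in the diet comparison was not tested. Levels below are CPM scaled by TMM over the 12 libraries, given per library and as mean ± SD with n = 3 per group. Each fold change comes from the 6 libraries of its comparison by the quasi-likelihood test of edgeR, with Benjamini-Hochberg adjustment over all genes tested and 0.05 as the threshold.

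The sequences before 5 gene starts are shown first, because Phyh, Eci1, Cpt1a and Hadha had the 4 smallest p of the members in the diet comparison, and Hadhb starts beside Hadha. Hadha and Hadhb, the alpha and beta subunits of the mitochondrial trifunctional protein, are transcribed away from each other, and the stretch between their RefSeq starts (GRCm38.p6, chr5:30154981-30155252, plus strand) is 272 bases long. The windows of Cpt1a (chr19:3323051-3323300), Eci1 (chr17:24426433-24426682) and Phyh (chr2:4918746-4918995) are the 250 bases before the RefSeq start on the plus strand. By the gene coordinates of the deposited counts, Hadha starts at 30155162 and Eci1 at 24426641. Each of these lies inside the stretch shown, so part of that stretch is within the gene by those coordinates. Capitals mark motifs read on either strand. One is the GC box, spelled GGGCGG, where Sp family factors bind. The CCAAT box is spelled as its name. The last is the hexamer AGGTCA, which nuclear receptors recognise.
Hadha and Hadhb: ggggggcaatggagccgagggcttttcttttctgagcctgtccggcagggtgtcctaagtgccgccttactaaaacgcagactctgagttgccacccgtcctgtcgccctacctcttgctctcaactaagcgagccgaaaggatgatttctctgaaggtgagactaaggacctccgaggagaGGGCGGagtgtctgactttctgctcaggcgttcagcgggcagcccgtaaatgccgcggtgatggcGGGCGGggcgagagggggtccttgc
Cpt1a: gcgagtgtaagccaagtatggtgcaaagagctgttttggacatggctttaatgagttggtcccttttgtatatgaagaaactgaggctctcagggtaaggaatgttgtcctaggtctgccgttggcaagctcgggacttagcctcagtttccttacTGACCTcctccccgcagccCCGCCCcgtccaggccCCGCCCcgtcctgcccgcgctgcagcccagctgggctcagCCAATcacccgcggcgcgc
Eci1: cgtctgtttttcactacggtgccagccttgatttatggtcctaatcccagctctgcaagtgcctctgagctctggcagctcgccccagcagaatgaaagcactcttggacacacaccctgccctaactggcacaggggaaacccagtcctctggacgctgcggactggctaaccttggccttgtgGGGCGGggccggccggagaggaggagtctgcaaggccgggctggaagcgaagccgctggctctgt
Phyh: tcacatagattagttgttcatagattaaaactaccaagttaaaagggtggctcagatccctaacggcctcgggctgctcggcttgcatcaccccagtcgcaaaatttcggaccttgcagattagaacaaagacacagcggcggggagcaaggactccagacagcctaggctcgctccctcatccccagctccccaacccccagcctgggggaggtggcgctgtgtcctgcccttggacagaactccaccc
The stretch shared by Hadha and Hadhb holds 2 GC boxes and 18 CpG. The Cpt1a window holds 2 GC boxes, 1 CCAAT box and 1 hexamer, that of Eci1 1 GC box, and that of Phyh none of the 3 motifs.

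RefSeq windows were found for 26 of the 32 members. Over the 250 bases before the start, 19 of 26 (73.1%) held a GC box, against 32.7% of 32851 mouse windows of that length, and 13 of 26 (50%) a CCAAT box, against 33.8%. By class, GC boxes were in 9 of 15 mitochondrial and 8 of 9 peroxisomal windows. The windows of members were also richer in G and C, with a median of 58.8% against 52.4% over all windows, and the part of this in the counts of GC boxes was not tested. The hexamer AGGTCA was in 4 of 26 (15.4%), those of Acadm, Acadvl, Cpt1a and Scp2, against 14% of all windows. Its direct repeat with 1 base between (AGGTCANAGGTCA), the classical form bound by PPAR with RXR, was in 0 of 26 windows and 0.0335% of all, and the element TCAAGGTCA, which contains the hexamer, in 0 of 26 and 0.387% of all. A missing match says only that these letters are not in this window.

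To set genes beside each other, CPM were divided by the length in kb of all annotated exons of a gene. The order therefore depends on that annotation. Per kb of exon, the members spanned a wide range of levels in Chow. Scp2 was first at 107 CPM per kb, followed by Hsd17b4 at 78.9, Etfa at 73.3, Acadl at 61.7 and Acadm at 54.7 CPM per kb. In HFD the order was led by Acaa2 at 78.3, Hsd17b4 at 76.0 and Scp2 at 73.0 CPM per kb. Cpt1a moved from rank 18 in Chow to rank 7 in HFD, and Phyh from rank 6 to rank 15. The 3 members lowest in Chow were Acot1 at 0.113, Cpt1b at 0.197 and Hacl1 at 0.392 CPM per kb.

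The first comparison asked what the high-fat diet did to these genes. The members split: 8 rose, 7 fell and 16 did not pass, of 31 tested. Cpt1a, the gate of mitochondrial entry, rose 2.86-fold and the trifunctional protein gene Hadha 1.85-fold, while Phyh, the first enzyme of peroxisomal alpha-oxidation, fell 2.42-fold and Eci1, which prepares unsaturated chains for mitochondrial oxidation, fell 2.01-fold. Both classes held rises and falls: 4 of 17 tested mitochondrial members rose and 4 fell, 3 of 10 peroxisomal members rose and 2 fell, and of the 4 others Acot1 rose and Crat fell. The 15 called members are 48.4% of those tested, where edgeR called 59.8% of all 16216 genes tested, 29.8% higher and 30.0% lower. The members' median absolute log2 fold change was 0.35 against 0.64 over all genes, and 4 of 31 members were called with at least a 2-fold change, against 5299 of 16216 genes. The share called among members lay below that of all genes, so the number of calls is not a result about the members. DESeq2 and limma-voom also called 15 members each (59.4% and 60% of all genes), and edgeR called the same numbers, 8 higher and 7 lower, with mitochondrially encoded genes left out. Single libraries mattered: edgeR called 8 members without HFD 4, where it called 48.3% of all genes, and 9 without HFD 30, where it called 49.6%. The calls of Cpt1a, Hadha, Acaa2, Eci1, Etfa, Phyh and Scp2, 7 of the 15, held in all 16 alternatives of scaling, filter, tool and library, and none of the 15 changed sign. With all 12 libraries in one fit the calls of Hadh, Crat, Cpt2, Hadhb and Decr2 were lost (edgeR adjusted p of 0.0829, 0.0747, 0.132, 0.13 and 0.0528). Upper quartile scaling ended those of Acox3, Hadhb and Decr2 (0.0547, 0.0681 and 0.116), and Hacl1, Acadvl and Eci2 passed with it, all lower (0.0415, 0.0223 and 0.0428). Without an expression filter Crat and Cpt2 were lost (0.102 and 0.142), with the filter of 1 CPM Decr2 (0.0513), and in the authors' deposited table Cpt2 and Acot1 did not pass (adjusted p of 0.107 and 0.0506). On levels scaled within the comparison, the HFD and Chow libraries did not overlap in 17 of 31 members, against 68.5% of all genes tested. The median log2 fold change was -0.14 for the mitochondrial and -0.09 for the peroxisomal members, against -0.03 over all genes.

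**Figure D1:**
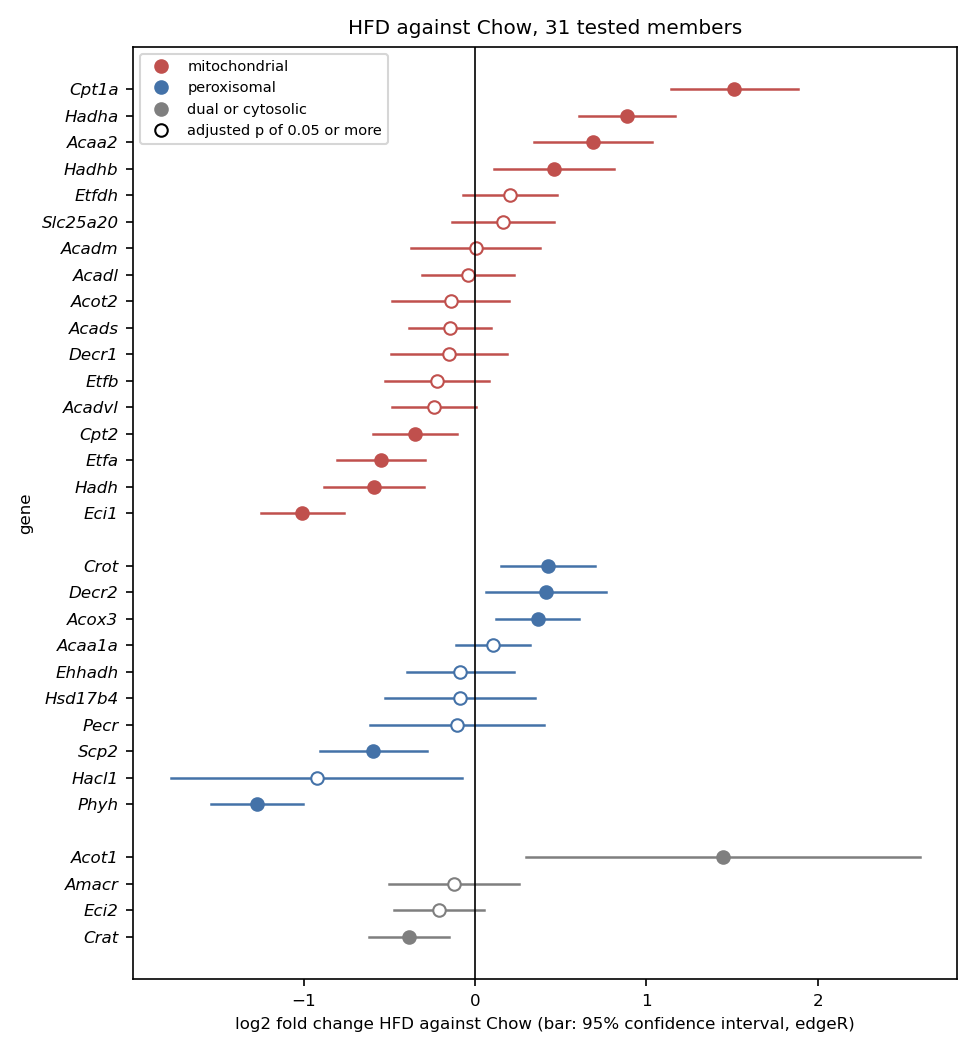
Log2 fold change of HFD against Chow (horizontal axis) for the 31 tested members (rows), with 95% confidence intervals as bars, by class. Filled points passed an adjusted p of 0.05 with edgeR: 8 lie to the right of 0 and 7 to the left, and both the mitochondrial (red) and the peroxisomal (blue) rows have points on each side.

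The carnitine shuttle changed unevenly. Cpt1a (ENSMUSG00000024900), carnitine palmitoyltransferase of the outer mitochondrial membrane and the step that malonyl-CoA inhibits, was at 130, 95.6 and 84.0 CPM in Chow 8, 17 and 19 and at 306, 305 and 296 CPM in HFD 4, 30 and 38. Every HFD library was above every Chow library, and the HFD libraries lay close together (302 ± 5.31 against 103 ± 24.1 CPM). Its log2 fold change was 1.51 (SE 0.16, edgeR adjusted p = 0.000116). Slc25a20, the translocase that carries acylcarnitine inward, was at 59.3, 44.4 and 45.2 CPM in Chow and 56.7, 52.8 and 61.2 CPM in HFD, so the groups overlapped (log2 fold change 0.16, 95% interval -0.14 to 0.46; without Chow 8 it passed, edgeR adjusted p = 0.0222). Cpt2, which reforms acyl-CoA inside, was at 59.3, 56.8 and 49.0 CPM in Chow and 47.0, 42.5 and 43.4 CPM in HFD. Without overlap between the groups, Cpt2 fell by 0.35 on the log2 scale (SE 0.11, edgeR adjusted p = 0.0211), a call lost without Chow 17 or any one of the HFD libraries (edgeR adjusted p of 0.0534 to 0.108). Cpt1b, the muscle form of the first enzyme, had between 7 and 23 counts in a library and did not pass the expression filter. Its levels were 0.523, 0.561 and 0.913 CPM in Chow and 0.471, 0.702 and 0.526 CPM in HFD, with overlap, and 81.4% of its exon bases are overlapped by Gm44502, so reads of the 2 genes may not be told apart.

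Carnitine esters of shorter chains are made by Crat, found in mitochondria and peroxisomes, and Crot, found in peroxisomes. Crat was at 201, 209 and 197 CPM in Chow and 153, 158 and 167 CPM in HFD, all HFD libraries below all Chow libraries, and fell by 0.38 on the log2 scale (SE 0.10, edgeR adjusted p = 0.0112). Crot was at 48.6, 36.5 and 39.0 CPM in Chow and 57.8, 57.1 and 55.9 CPM in HFD, all HFD libraries above all Chow libraries, and rose by 0.43 (SE 0.12, edgeR adjusted p = 0.0143). The 2 transferases thus moved in opposite directions with the diet. With a library left out, the call of Crat was lost without HFD 4 or HFD 30 (edgeR adjusted p of 0.0786 and 0.0671), beside the losses given above, and that of Crot without HFD 4 (0.0504).

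None of the 4 acyl-CoA dehydrogenases of the first mitochondrial step passed. Acadm (medium chains) ranged from 176 to 263 CPM in Chow and from 197 to 248 CPM in HFD, Acadl (long chains) from 111 to 143 and from 118 to 128 CPM, and Acads (short chains) from 64.9 to 74.7 and from 61.1 to 69.6 CPM. Acadvl (very long chains) was at 121, 123 and 113 CPM in Chow and 114, 94.4 and 102 CPM in HFD, with a log2 fold change of -0.24 (95% interval -0.49 to 0.01, edgeR adjusted p = 0.0847), and 42.9% of its exon bases overlap Dvl2. The intervals of the other 3 lay between -0.39 and 0.38, so changes beyond about that size lie outside them.

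The electrons of these dehydrogenases pass through the flavoprotein of Etfa and Etfb to the oxidoreductase of Etfdh. Etfa was at 142, 144 and 118 CPM in Chow and 99, 92.0 and 91.7 CPM in HFD. All HFD libraries lay below all Chow libraries, and Etfa fell by 0.55 on the log2 scale (SE 0.11, edgeR adjusted p = 0.0032). Etfb, its partner subunit, had a log2 fold change of -0.22 (95% interval -0.53 to 0.08) and Etfdh one of 0.20 (-0.07 to 0.48), and neither passed, though Etfdh did without Chow 8 (edgeR adjusted p = 0.0339). For Etfb 58.2% of the exon bases are overlapped by Gm45233.

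Among mitochondrial members, genes of the later steps gave the largest rises after Cpt1a, while Hadh, which shares a step with Hadha, fell. Hadha was at 177, 167 and 139 CPM in Chow and 299, 301 and 313 CPM in HFD, with no overlap, and rose by 0.88 on the log2 scale (SE 0.12, edgeR adjusted p = 0.00043). Hadhb, its neighbour and partner subunit, was at 204, 176 and 134 CPM in Chow and 245, 232 and 247 CPM in HFD, again with no overlap, and rose by 0.46 (SE 0.15, edgeR adjusted p = 0.0303). Both genes that share the stretch of sequence shown above therefore rose, Hadhb with a call that was lost without Chow 17 or any one of the HFD libraries (edgeR adjusted p of 0.054 to 0.0847). Acaa2, the thiolase of medium chains, was at 88.2, 70.4 and 57.0 CPM in Chow and 122, 115 and 119 CPM in HFD, and rose by 0.69 (SE 0.15, edgeR adjusted p = 0.00439). Hadh, the dehydrogenase of shorter hydroxyacyl chains, went the other way, at 201, 181 and 162 CPM in Chow and 139, 111 and 121 CPM in HFD. No library overlapped, and Hadh fell by 0.59 on the log2 scale (SE 0.13, edgeR adjusted p = 0.00435; 0.0829 with all 12 libraries in one fit).

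Among the auxiliary enzymes for unsaturated chains, Eci1, an enoyl-CoA isomerase, was at 59.6, 56.7 and 50.0 CPM in Chow and 29.5, 28.3 and 26.9 CPM in HFD. Every HFD library was below every Chow library, and Eci1 fell by 1.01 on the log2 scale (SE 0.10, edgeR adjusted p = 0.000102). Decr1, the mitochondrial dienoyl-CoA reductase, was at 154, 132 and 104 CPM in Chow and 129, 112 and 118 CPM in HFD and did not pass (log2 fold change -0.15, 95% interval -0.49 to 0.19). Eci2, an isomerase of both organelles, had a log2 fold change of -0.21 (-0.48 to 0.05) and did not pass either, though it did without Chow 19 (edgeR adjusted p = 0.0252). The peroxisomal dienoyl-CoA reductase Decr2 was at 24.0, 17.0 and 16.4 CPM in Chow and 24.6, 26.0 and 27.8 CPM in HFD. The highest Chow library came near the lowest HFD library, and Decr2 rose by 0.41 (SE 0.15, edgeR adjusted p = 0.0453), a call lost without any one library but Chow 8 (edgeR adjusted p of 0.0747 to 0.126). Pecr, the peroxisomal trans-enoyl-CoA reductase, stayed between 4.57 and 7.76 CPM in both groups and did not pass, and another gene overlaps 11.5% of its exon bases.

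Of the 2 thioesterases, which release free fatty acids from acyl-CoA, Acot2 (mitochondrial) was at 10.6, 12.7 and 12.4 CPM in Chow and 9.86, 11.4 and 11.9 CPM in HFD and did not pass. Acot1 (cytosolic) was at 0.896, 0.320 and 0.114 CPM in Chow and 1.49, 1.16 and 1.40 CPM in HFD. It rose by 1.45 on the log2 scale (SE 0.50, edgeR adjusted p = 0.0349), from between 1 and 52 counts per library over all groups, and its call was lost without any one library but Chow 8 (edgeR adjusted p of 0.0619 to 0.105). The genes are closely similar neighbours on chromosome 12, so the split of reads between them is uncertain.

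**Figure D2:**
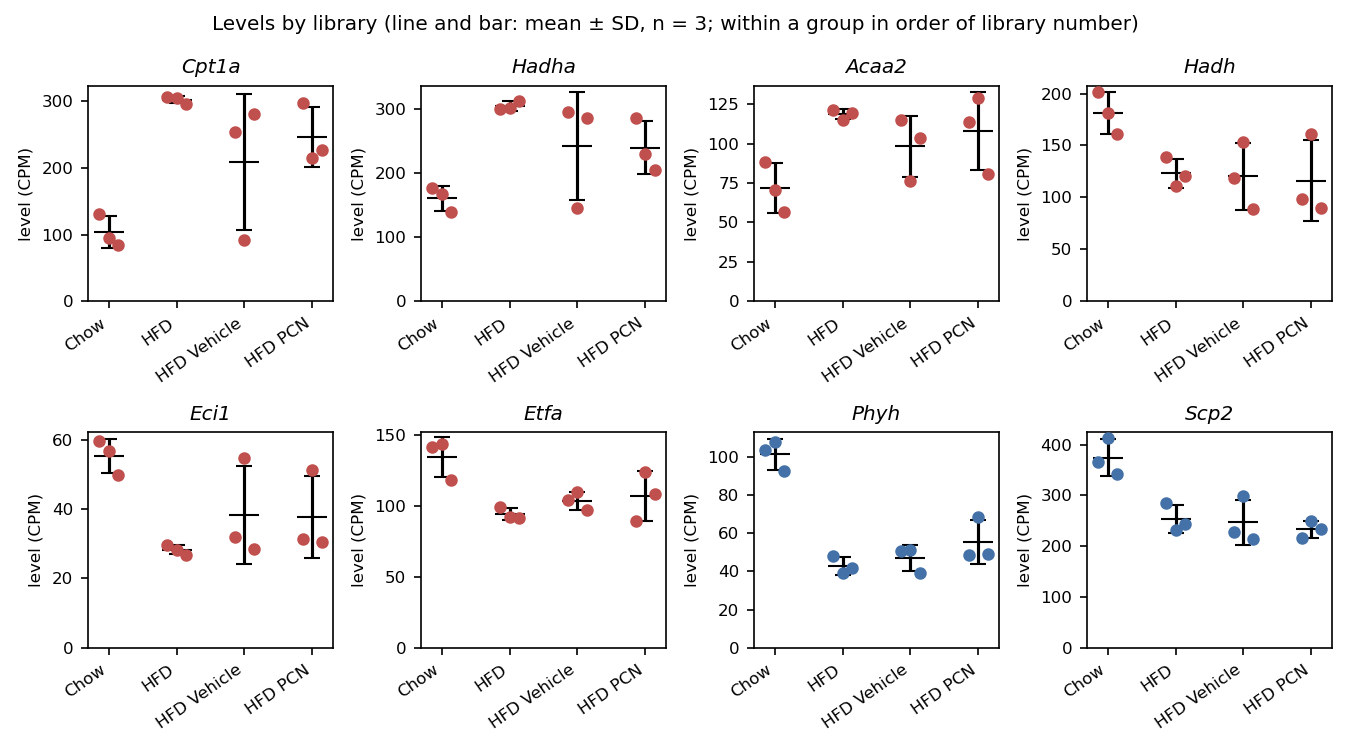
Level in CPM (vertical axes) in each library of the 4 groups for 6 mitochondrial (red) and 2 peroxisomal (blue) members, with mean and SD of 3 libraries as black lines. Cpt1a, Hadha and Acaa2 are higher and Hadh, Eci1, Etfa, Phyh and Scp2 lower in all 3 HFD than in all 3 Chow libraries, and in HFD Vehicle the middle point, library 50, lies near Chow for Cpt1a (92.0 CPM), Hadha (146 CPM) and Eci1 (54.7 CPM).

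The peroxisomal round starts with an acyl-CoA oxidase. Acox3, the oxidase of branched chains, was at 79.3, 70.3 and 66.2 CPM in Chow and 100, 95.8 and 88.8 CPM in HFD, with no overlap, and rose by 0.37 on the log2 scale (SE 0.11, edgeR adjusted p = 0.0166; 0.0741 without HFD 4 and 0.0595 without HFD 30).

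The bifunctional enzymes of hydration and dehydrogenation did not pass. Ehhadh was at 21.9, 17.3 and 19.1 CPM in Chow and 16.4, 20.2 and 19.6 CPM in HFD (log2 fold change -0.09, 95% interval -0.40 to 0.23). Hsd17b4 was at 331, 284 and 191 CPM in Chow and 277, 245 and 255 CPM in HFD (-0.09, interval -0.52 to 0.35). For both, the Chow range reached across most or all of the HFD range. The thiolase Acaa1a was at 63.0, 66.2 and 59.0 CPM in Chow and 70.9, 67.9 and 68.8 CPM in HFD and did not pass (0.10, interval -0.11 to 0.32), and its closely similar copy Acaa1b makes the split of reads uncertain.

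Scp2, whose gene encodes both a thiolase for branched chains and the sterol carrier protein, was at 367, 413 and 341 CPM in Chow and 286, 232 and 244 CPM in HFD. All HFD libraries lay below all Chow libraries, and Scp2 fell by 0.59 on the log2 scale (SE 0.14, edgeR adjusted p = 0.00589). In the pathway of branched chains, Phyh (ENSMUSG00000026664), phytanoyl-CoA hydroxylase, was at 103, 108 and 92.4 CPM in Chow and 48.0, 38.9 and 42.0 CPM in HFD. Its lowest Chow library was far above its highest HFD library, and the log2 fold change was -1.27 (SE 0.12, edgeR adjusted p = 5.98e-05), the smallest adjusted p of the members. Hacl1, the lyase of the next step, had between 9 and 38 counts and was at 2.46, 2.32 and 1.03 CPM in Chow and 1.09, 1.30 and 0.760 CPM in HFD. Chow 19 lay within the HFD range, and Hacl1 did not pass (log2 fold change -0.93, edgeR adjusted p = 0.0594; without Chow 19 it did, 0.0155), and Gm49387 overlaps 33.3% of its exon bases. Amacr, the racemase that makes branched chains fit for beta-oxidation, was at 7.54, 6.25 and 7.08 CPM in Chow and 7.18, 6.32 and 6.08 CPM in HFD and did not pass.

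**Figure D3:**
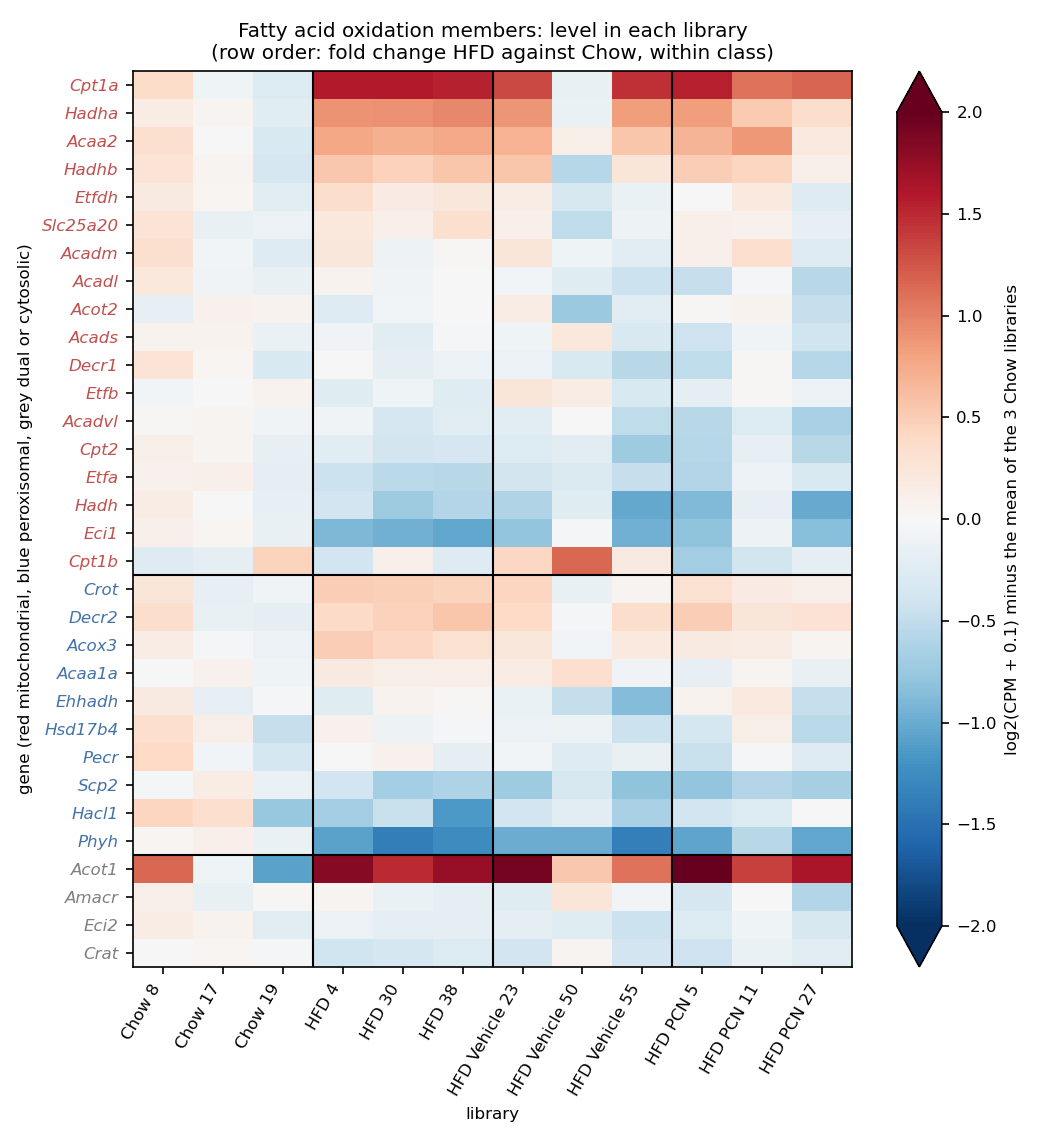
Level of each member (rows, ordered within class by the fold change of HFD against Chow) in each library (columns), as log2(CPM + 0.1) minus the mean of the 3 Chow libraries. Red is higher and blue lower than Chow; the HFD columns are red for Cpt1a, Hadha and Acaa2 and blue for Eci1, Phyh and Scp2, and the column of HFD Vehicle 50 is pale for Cpt1a, Hadha and Eci1.

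Summed over the class, the mitochondrial members came to 1978, 1736 and 1492 CPM in Chow 8, 17 and 19 and to 1735 ± 243 CPM as a mean, against 2051 ± 87.9 CPM in HFD. The peroxisomal members came to 966 ± 119 CPM in Chow and 829 ± 52.1 CPM in HFD. Both sums overlapped between the groups. The mitochondrial sum ran from 1963 to 2139 CPM in HFD, and the peroxisomal sum from 830 to 1048 CPM in Chow and 791 to 888 CPM in HFD. The log2 ratio of the mitochondrial to the peroxisomal sum was 0.84 ± 0.07 in Chow, from 0.77 to 0.92, and 1.31 ± 0.04 in HFD, from 1.27 to 1.34. The 2 ranges of this ratio did not overlap, and the difference of 0.46 was larger than the spread within either group. No test was run on this ratio of sums over chosen members. It rested in part on a few abundant genes: the difference was 0.19 without Hadha and Scp2, the most abundant member of each class, and 0.18 as a difference of mean log2 levels, in which each gene counts alike. Over members rather than sums, the class medians given above were both slightly below 0, and that of the peroxisomal class was 0.10 without Chow 8.

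**Figure D4:**
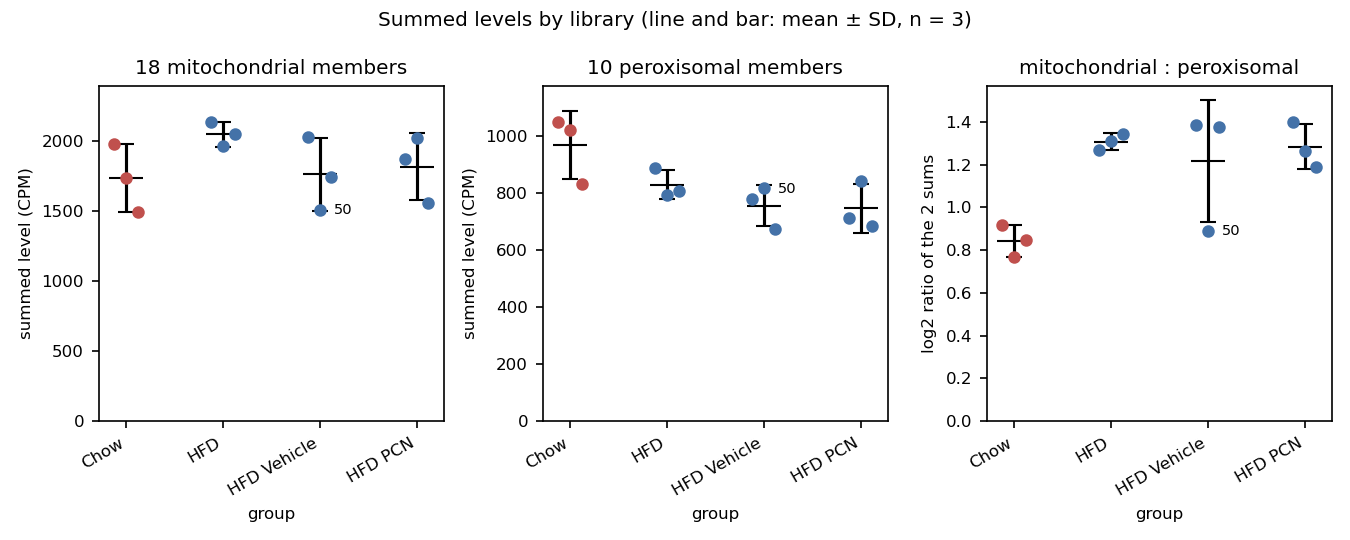
Summed level in CPM of the 18 mitochondrial members (left) and the 10 peroxisomal members (middle), and the log2 ratio of the 2 sums (right), for each library by group, with mean and SD of 3 libraries. In the right panel the HFD libraries (1.27 to 1.34) lie above the Chow libraries (0.77 to 0.92), and HFD Vehicle 50, labelled 50, lies at 0.89, within the Chow range.

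Other genes of the same pathways come from lists chosen with earlier results known, and no test was run on the lists. Their shares called, 64.3% of further mitochondrial steps, 64.3% of further peroxisomal genes and 68.4% of assembly genes, lay near the 59.8% of all genes. The shares lower, 57.1, 50 and 57.9% in that order, lay above the 30.0% of all genes. The shares higher, 7.14, 14.3 and 10.5%, lay below the 29.8% of all genes. Of 14 genes listed as further mitochondrial steps, a placing that does not rest on these data, 8 fell, 1 rose and 5 did not pass. Among those that fell, Echs1, the enoyl-CoA hydratase of short chains, went from 108 ± 1.54 to 66.1 ± 2.41 CPM (log2 fold change -0.75), and Acad11, a dehydrogenase of very long chains, from 267 ± 45.3 to 74.4 ± 7.25 CPM (-1.88). Pccb (-1.21) and Pcca (-0.90), the subunits of propionyl-CoA carboxylase, and Acadsb (-1.24), a dehydrogenase of short branched chains, fell too. Of 14 tested further peroxisomal genes 7 fell and 2 rose. Abcd2 (-1.17), a peroxisomal importer of very long chains, Lonp2 (-0.82) and Acot4 (-2.86) were among those that fell. Of 19 genes of peroxisome assembly and membrane 11 fell and 2 rose, with Pxmp2 at -1.81, Pex11a at -1.06, Pex3 at -0.83, Pex19 at -0.73 and the import receptor Pex5 at -0.70.

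Of 18 regulators 11 fell, 0 rose and 7 did not pass. The share called, 61.1%, lay near the 59.8% of all genes, but all of it was lower, against 30.0% of all genes. No test was run on this list. Ppara, the PPAR of oxidative tissues, was at 13.1, 13.1 and 17.0 CPM in Chow and 4.13, 3.02 and 3.10 CPM in HFD and fell by 2.10 on the log2 scale (SE 0.20, edgeR adjusted p = 6.5e-05). Pparg, the PPAR of adipocytes, fell by 1.41, its partner Rxra by 1.05, the coactivator Lpin1 by 2.0 and Prkaa2, a catalytic subunit of the kinase AMPK, by 1.37. Ppargc1a, which encodes PGC-1alpha, was at 2.69, 3.28 and 8.22 CPM in Chow and 2.61, 2.67 and 1.64 CPM in HFD and did not pass (log2 fold change -1.02, edgeR adjusted p = 0.0744), though it did without Chow 8 (-1.30, 0.0246), without an expression filter (0.0294) and with DESeq2 (adjusted p = 0.0423). Its value rested on Chow 19, without which the log2 fold change was -0.37 (edgeR adjusted p = 0.323). Among the 5 genes that set malonyl-CoA, the inhibitor of the Cpt1a enzyme, Acacb (-2.95), Acaca (-1.59), Fasn (-1.11) and Mlycd (-0.61) fell and Acly (0.74) rose. Acacb makes the malonyl-CoA found near mitochondria and Mlycd breaks malonyl-CoA down, so a gene of making and one of breaking down malonyl-CoA both fell.

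Of 9 genes of fatty acid activation and uptake 4 rose and 4 fell, where 29.8% of all genes were higher and 30.0% lower. The acyl-CoA synthetases Acsl4 (1.14) and Acsl5 (1.07) rose, Acsl1 (-1.22), the main form of adipocytes, fell, and the carnitine transporter Slc22a5 fell by 0.83. Of 9 tested PPAR target and ketone body genes 3 fell and 1 rose (44.4% called). Ucp3 (-2.54), Cidea (-1.74; edgeR adjusted p = 0.0624 with all 12 libraries in one fit) and the thiolase Acat1 (-0.68) fell and Ucp2, an inner membrane carrier also made by macrophages, rose by 1.13.

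Markers of cell types moved with the diet beside these genes. Of 14 adipocyte markers 13 fell. The summed level of the 11 found in both tables, without Cfd, Retn and Adrb3, lay between 19842 and 24157 CPM in Chow and between 7374 and 9217 CPM in HFD. Adipoq, the adiponectin gene, went from 1846 ± 371 to 416 ± 89.0 CPM. All 12 macrophage markers rose, with sums of 515 to 1466 CPM in Chow and 12045 to 13588 CPM in HFD, and Adgre1, a surface receptor of macrophages, stood at 28.1 to 76.1 CPM in Chow and 909.7 to 956 CPM in HFD. All 8 endothelial markers fell (1378 to 1529 CPM against 523 to 537 CPM) and 7 of 8 fibroblast and progenitor markers rose (1885 to 3459 against 9164 to 10528 CPM). No marker of these 4 lists was at 0 in all libraries. Of 6 tested brown and beige fat markers 2 rose and 1 fell, with log2 fold changes of the 6 from -1.74 to 4.75. The sums of brown and beige fat markers lay between 6.81 and 13.0 CPM in Chow and between 10.6 and 11.8 CPM in HFD, and do not show these opposite changes. Sums of the intestinal genes lay between 32.2 and 50.9 CPM in Chow and between 9.37 and 9.88 CPM in HFD. Those of skeletal muscle markers lay between 54.9 and 69.0 CPM in Chow and between 13.5 and 30.3 CPM in HFD. Sums of liver and of mesothelial markers overlapped between Chow and HFD. In bulk tissue fewer cells of a type and less RNA per cell cannot be told apart, and the part of the cell mix in the members' changes was not tested.

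The second comparison set PCN against its vehicle in obese mice. No member passed: 0 of 32 with edgeR, where 0 of 16563 genes (0%) passed, and 0 members with DESeq2 or limma-voom. With edgeR 1 member and 281 genes had an unadjusted p under 0.05, DESeq2 called 2 genes and limma-voom 0. The members' log2 fold changes ran from -1.16 to 0.46, with medians of -0.01 for the mitochondrial and 0.03 for the peroxisomal class, 0.00 over all genes tested, and 16 members on each side of 0.

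The 4 members with the smallest p were Cpt1b, Ehhadh, Acaa1a and Acadvl. Cpt1b was at 0.893, 1.56 and 0.747 CPM in HFD Vehicle 23, 50 and 55 and 0.361, 0.476 and 0.561 CPM in HFD PCN 5, 11 and 27. All PCN libraries lay below all vehicle libraries, from 7 to 23 counts each (log2 fold change -1.16, 95% interval -2.18 to -0.14, edgeR adjusted p = 0.9999). Ehhadh, a known target of PPAR alpha in liver, was at 17.7, 13.9 and 10.5 CPM with vehicle and 20.3, 22.1 and 14 CPM with PCN, with overlap (0.42, interval -0.23 to 1.08). Acaa1a (-0.23, -0.63 to 0.18) and Acadvl (-0.26, -0.74 to 0.22) had intervals across 0.

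Cpt1a was at 255, 92.0 and 281 CPM with vehicle and 297, 214 and 228 CPM with PCN. HFD PCN 11 and 27 lay between the extremes of the vehicle group, and HFD PCN 5 lay above all vehicle libraries. Library 50 of the vehicle group was in the range of Chow. Hadha was at 296, 146 and 286 CPM with vehicle and 286, 229 and 204 CPM with PCN, Eci1 at 32.1, 54.7 and 28.5 against 31.4, 51.4 and 30.5 CPM, and Phyh at 50.9, 51.0 and 39.1 against 48.4, 68.6 and 49.2 CPM. All 3 overlapped between vehicle and PCN. The spread within the vehicle group (SD 102 CPM for Cpt1a, against 5.31 CPM in HFD) limits what this comparison can show. Without HFD Vehicle 50, edgeR again called 0 members, as did DESeq2 and limma-voom, 2 settings chosen after seeing the data.

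**Figure D5:**
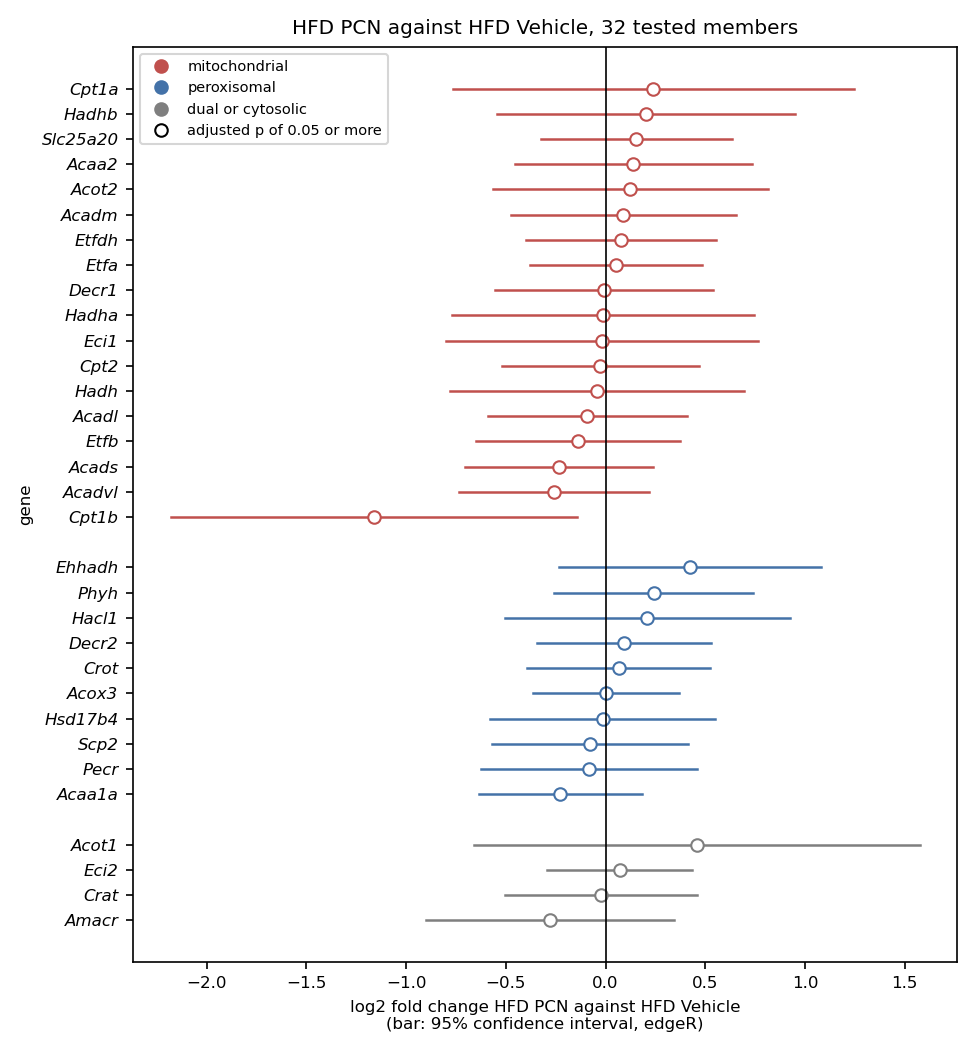
Log2 fold change of HFD PCN against HFD Vehicle (horizontal axis) for the 32 members (rows), with 95% confidence intervals as bars, by class. All points are open, since none passed an adjusted p of 0.05 with edgeR, and all intervals but that of Cpt1b (-2.18 to -0.14) include 0.

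Of the further lists, none had a member that passed with edgeR in this comparison. Among them, the smallest p in a list belonged to Cpt1c (0.37) among mitochondrial steps, Abcd2 (0.38) among peroxisomal steps, Pxmp4 (0.32) in assembly, Ncoa1 (-0.33) among regulators, Fasn (-1.32) and Slc22a5 (0.35), all as log2 fold changes. Mesothelial marker genes summed to 9.29 to 54.8 CPM with vehicle and 51.3 to 95 CPM with PCN, and their part in these values was not tested.

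Both injected groups were then set beside the uninjected HFD group, over genes in both tables. They share the HFD libraries with each other and with the diet comparison, and the labels do not say whether uninjected and injected mice were handled together, so injection and handling cannot be told apart. With vehicle against HFD 0 of 32 members passed with edgeR, where 0 of 16781 genes (0%) passed, with 0 members and 1639 genes at an unadjusted p under 0.05. DESeq2 called 107 genes and limma-voom 0, and neither called a member. The smallest p were those of Cpt1b (0.87), Etfdh (-0.32), Acox3 (-0.27) and Crot (-0.33), with intervals that all include 0. Without HFD Vehicle 50 edgeR called 172 genes and 0 members.

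With PCN against HFD 0 of 32 members passed with edgeR, where 732 of 16927 genes (4.32%) did, and 6 members had an unadjusted p under 0.05. DESeq2 called 1 member, Acox3, and 14.4% of all genes, and limma-voom 0 members and 3.00% of all genes. Acox3 was at 100, 95.8 and 88.8 CPM in HFD and 80.9, 79.1 and 74.8 CPM with PCN, all PCN libraries below all HFD libraries (log2 fold change -0.28, SE 0.09, edgeR adjusted p = 0.0898). Crot was at 57.8, 57.1 and 55.9 CPM in HFD and 51.0, 45.9 and 44.0 CPM with PCN, again without overlap (-0.28, SE 0.09, edgeR adjusted p = 0.0909). Both peroxisomal genes had similar fold changes with vehicle against HFD, -0.27 and -0.33. Acaa1a (-0.23) and Hadha (-0.35) came next, with edgeR adjusted p of 0.139 and 0.148. Without HFD PCN 5, edgeR called 5 of 32 members, of which Cpt1a, Hadha, Acox3 and Crot were lower and Etfa higher, and 31% of all genes. Without HFD PCN 11 it called Acadl, lower, and 3.81% of all genes. Neither with edgeR nor with DESeq2 is the number of members called a result about them.

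Of the further lists, the called genes with PCN against HFD were Pex5l (-0.94), Acly (-0.59), Fasn (-1.68), Acacb (0.70), Slc22a5 (0.49) and Pdk4 (0.48), a kinase that restrains pyruvate oxidation. None of the 6 passed without any one of the HFD libraries or without HFD PCN 27 (edgeR adjusted p of 0.0899 to 0.187). The count of all genes called in this comparison hung on single libraries: it was 0 without HFD 4 or HFD 38, 1 without HFD 30, 4 without HFD PCN 27, 5167 without HFD PCN 5, and 0 with all 12 libraries in one fit. In the lists without a gene called by edgeR, the smallest p were those of Acot9 (-0.41), Cat (-0.61) and Prdm16 (1.06). DESeq2 called each of them (adjusted p of 0.0183, 0.0136 and 0.00384), where it called 14.4% of all genes. With vehicle against HFD, where no listed gene passed with edgeR, the smallest p were those of Acot9 (-0.35), Nudt7 (-0.49), Pex6 (0.76), Prdm16 (1.85), Acly (-0.44), Slc27a1 (0.69) and Ucp3 (0.96). Acly was called there by DESeq2 (adjusted p = 0.0272) and by edgeR without HFD Vehicle 50 (0.0457). Without that library DESeq2 gave Prdm16 1.02 and Slc27a1 0.39, smaller than the edgeR values from all 6 libraries. It called both (adjusted p of 0.0051 and 0.0333).

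Libraries differed within both injected groups. Over the 15 members called in the diet comparison, HFD Vehicle 50 was nearer to the Chow mean than to the HFD mean in 11, HFD PCN 11 in 7, HFD PCN 27 in 5, HFD Vehicle 55 in 2, HFD PCN 5 in 1 and HFD Vehicle 23 in 0. The same count was not made over all genes, so it is not a result about the members. The adipocyte marker Adipoq was at 1179 CPM in HFD Vehicle 50 and 1475 CPM in HFD PCN 11, against 358 to 753 CPM in the other 4, and Adgre1 at 69.2 and 292 CPM against 696 to 895 CPM. The log2 ratio of the class sums was 1.22 ± 0.28 with vehicle and 1.28 ± 0.11 with PCN, a difference smaller than the spread within the groups. Within the vehicle group it was 1.39 and 1.38 in libraries 23 and 55 and 0.89 in library 50. Many members were highest or lowest of their group in the same library, in all 4 groups. In Chow, library 8 was highest in 22 of the 32 members and library 19 lowest in 25, and in HFD library 4 was highest in 20 and library 30 lowest in 17. With vehicle, library 23 was highest in 17 and library 55 lowest in 19, and with PCN library 11 was highest in 22 and library 27 lowest in 18. Counts of highest and lowest libraries were not made over all genes either, and are not a result about the members.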

How the data were processed

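Gene counts of 12 RNA sequencing libraries were analysed. The authors deposited 2 tables of whole-number counts per gene, each with 6 libraries, beside their own log2 fold changes and adjusted p-values. The submitters' processing notes name GRCm38 (mm10) and the tools HISAT2, HTSeq and DESeq2, without versions. Strand use in counting is unstated, so members with over 10% of exon bases under another gene (5 of 32) are marked. All per-sample columns matched a library. Tables were joined by gene ID.

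The deposited counts went into edgeR 4.0.16 (R 4.3.3; quasi-likelihood test, TMM, default expression filter, Benjamini-Hochberg adjustment), 6 libraries per comparison, after a check on simulated data. The simulated data held no outlying library, and no result here rests on that check. Alternatives were DESeq2 1.42.0, limma-voom (limma 3.58.1), 2 other scalings, 2 other filters, all 12 libraries in one fit, no mitochondrially encoded genes, an adjusted p of 0.1, the authors' adjusted p and each library left out. The deposited adjusted p-values and fold changes served only as that alternative. Added after seeing the data were DESeq2 and limma-voom without HFD Vehicle 50 and the class ratio per kb.

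The members, classes and gene lists were chosen with earlier results of these data known. All 32 members are named; of each other list up to 4 called genes with the smallest p per comparison, or 1 where none passed, and always Echs1, Ppara, Pparg, Ppargc1a, Pex5, Adipoq and Adgre1. Fasn in the diet comparison, and Cpt1a, Hadha, Eci1 and Phyh with PCN, were named after their values were seen. A few genes that this rule names are not reported here. Promoter windows are RefSeq sequences of GRCm38.p6.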

Additional observations from a re-analysis of the deposited data

How the results depend on the processing

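The log2 fold changes of the 15 members called in HFD against Chow kept their sign in all 16 alternatives, and 7 kept their call in each. With a library left out, members called ranged from 8 to 17 and those higher from 3 to 10; upper quartile scaling gave 5 higher and the fit of all 12 libraries 4 lower. The median log2 fold change of peroxisomal members ranged from -0.16 to 0.10 with a library left out. Members near 0 changed sign: Ehhadh ranged from -0.15 to 0.018, Pecr from -0.24 to 0.13, Hsd17b4 from -0.26 to 0.095, Acadl from -0.093 to 0.076 and Acadm from -0.097 to 0.18 with a library left out, Acadl was 0.036 without a filter and 0.02 in the authors' deposited table, and Acadm -0.094 with upper quartile scaling and -0.013 with the filter of 1 CPM. The difference in the log2 class ratio, 0.46, was 0.18 as mean log2 levels and 0.19 without Hadha and Scp2.

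In PCN against vehicle DESeq2 and the authors' deposited table held 2 called genes each, and DESeq2 44 without HFD Vehicle 50. In vehicle against HFD DESeq2 called 107 genes, edgeR from 0 to 172 with a library left out, and DESeq2 and limma-voom 724 and 158 without HFD Vehicle 50. In PCN against HFD DESeq2 called 2435 genes, edgeR 1296 without a filter, 2713 at an adjusted p of 0.1, 0 with all 12 libraries in one fit and from 0 to 5167 with a library left out; members called were 1 (DESeq2, lower) and 2 (adjusted p of 0.1, both lower), and from 0 to 5 with a library left out, from 0 to 1 of them higher and from 0 to 4 lower. The cause of these differences was not tested. The authors' deposited table held 13 members at an adjusted p under 0.05 for HFD against Chow and 0 for PCN against vehicle. No paired analysis was possible because the groups share no library numbers. With 3 libraries per group, and 1 to 52 counts for Acot1, 7 to 23 for Cpt1b and 9 to 38 for Hacl1, small changes in these genes were not detectable.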
